A study of Mus musculus with 24 samples.

Results

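The paired related homeobox factor Prrx1 was mapped by ChIP-seq in 3 kinds of cultured mouse fibroblasts, and 5953 of the 13405 merged Prrx1 sites (44.4%) had a summit in the list from mammary tumor fibroblasts and in no other list. These tumor-only sites made up 75.1% of the 7930 sites found in the tumor fibroblasts. Members were chosen from measured values: each Prrx1 summit of the 3 lists was widened by 250 bp on each side, overlapping windows were merged across lists, and merged sites with a tumor summit alone were kept. The other 1977 tumor fibroblast sites, called shared, also held a summit from wound-healing fibroblasts (1092 sites), from mouse embryonic fibroblasts (352 sites) or from both (533 sites). Being absent from the other lists and the Prrx1 score itself are thus part of the choice, whereas sequence, genes and histone marks are not.

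The tumor cells (MMTV-CAF) were cancer-associated fibroblasts grown from mammary tumors of MMTV-PyMT mice, in which a viral promoter drives a polyoma oncogene in mammary epithelium. MEFs came from embryos of days 10 to 13, and wound-healing fibroblasts from dorsal skin wounds at day 10. All lines had been immortalized with the papillomavirus genes E6 and E7, so every group carries them, deleted or not. WT marks cells given a non-targeting guide, SG marks CRISPR/Cas9 deletion of Prrx1 with a guide RNA, and KI was read as the Prrx1 mutant mouse strain that the study describes. The tumor fibroblasts were of strain FVB/NJ and the other WT cells of C57BL/6, so that strain, tissue and tumor origin cannot be told apart. Of 24 samples, 17 had a peak list: 7 for H3K27ac, 7 for H3K4me3 and 3 for Prrx1, all Prrx1 lists being from WT cells. Each group has 1 library, so no p-value is given. Intervals in the text are 95% intervals (Wilson for a share, Newcombe for a difference) that cover counting error over sites, and not differences between cultures.

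Prrx1 is a homeodomain transcription factor of embryonic limb and craniofacial mesenchyme that is also expressed in activated fibroblasts. Homeodomains of its class touch DNA through an AT-rich core, and pairs of them can bind 2 such cores facing each other. H3K27ac is a mark of active enhancers and promoters, and H3K4me3 marks the starts of active or poised genes.

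The core that homeodomains of this class recognize was looked for below each summit. The following stretches, read from the plus strand of NCBIM37 (the assembly also named mm9), reach 50 bases to either side of a tumor-only summit, with every copy of the homeodomain core TAATTA in capitals. Shown are the 4 strongest sites away from and the 3 strongest near a transcription start site (TSS) that hold the core in this stretch, the strongest site of all and the Yap1 upstream site for contrast, and the sites with a core in the stretch at Prrx1 and Tead1, both regulators in the study's list. Stretches with more than 30 bases of untranslated exon were passed over.
Dcun1d5 side, away from a TSS, chr9:7216413-7216513: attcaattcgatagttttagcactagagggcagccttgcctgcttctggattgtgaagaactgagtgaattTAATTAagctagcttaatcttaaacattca
Tmem106a side, away from a TSS, chr11:101449055-101449155: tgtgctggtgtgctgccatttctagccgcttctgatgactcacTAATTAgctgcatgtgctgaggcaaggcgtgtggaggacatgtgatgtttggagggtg
Ndufb9 side, away from a TSS, chr15:58782440-58782540: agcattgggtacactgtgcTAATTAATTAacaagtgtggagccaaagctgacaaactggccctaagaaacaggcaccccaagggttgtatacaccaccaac
Cacnb3 side, away from a TSS, chr15:98457312-98457412: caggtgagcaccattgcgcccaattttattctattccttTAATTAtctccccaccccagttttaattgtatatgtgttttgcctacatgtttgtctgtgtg
AK129341 promoter side, chr9:8134724-8134824: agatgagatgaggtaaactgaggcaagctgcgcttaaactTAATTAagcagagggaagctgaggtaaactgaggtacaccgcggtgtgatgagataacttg
Tmem167b promoter side, chr3:108365417-108365517: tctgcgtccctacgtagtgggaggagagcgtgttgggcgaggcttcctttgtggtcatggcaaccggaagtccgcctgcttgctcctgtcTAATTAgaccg
Add3 promoter side, chr19:53215766-53215866: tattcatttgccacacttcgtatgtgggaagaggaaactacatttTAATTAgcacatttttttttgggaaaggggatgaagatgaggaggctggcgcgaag
Akr1d1 side, strongest of all, no core, chr6:37572283-37572383: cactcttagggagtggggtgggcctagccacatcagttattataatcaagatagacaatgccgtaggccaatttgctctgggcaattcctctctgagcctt
Yap1 upstream, no core, chr9:8004762-8004862: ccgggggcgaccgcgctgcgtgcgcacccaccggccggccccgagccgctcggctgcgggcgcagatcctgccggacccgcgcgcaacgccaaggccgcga
Prrx1 intron, chr1:165238706-165238806: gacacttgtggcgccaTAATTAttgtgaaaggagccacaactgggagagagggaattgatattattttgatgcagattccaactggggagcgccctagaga
Tead1 intron, chr7:119897005-119897105: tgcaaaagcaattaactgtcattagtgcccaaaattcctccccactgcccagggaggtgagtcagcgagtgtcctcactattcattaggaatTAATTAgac
In 6 of the 7 strongest sites with a core the stretch held 1 copy, and in the Ndufb9 site 2 copies overlapped. The site with the highest Prrx1 score of all, near Akr1d1, and the Yap1 upstream site, in GC-rich sequence (82.2% G or C over the stretch), held no core.

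The core lay close to the summits. Within 100 bp of the summit, TAATTA (its own reverse complement, so both strands are searched at once) was found at 2016 of 5953 tumor-only sites, or 33.9% (32.7 to 35.1%). Windows of the same length 2 kb to either side of the same summits held it in 5.65% (5.25 to 6.08%). The median distance from summit to nearest copy was 29.5 bp, 1442 sites had a copy within 50 bp, and 489 sites (8.21%) had at least 2 copies, up to 6. Base composition differed little between the windows and their flanks, with a median of 45.8% and 44.8% G or C. The palindrome of 2 homeodomain half-sites, in which facing cores are set apart by a short spacer, was found at 4.42% of tumor-only sites, 13.9% of shared sites and 0.454% of flanking windows.

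**Figure D1:**
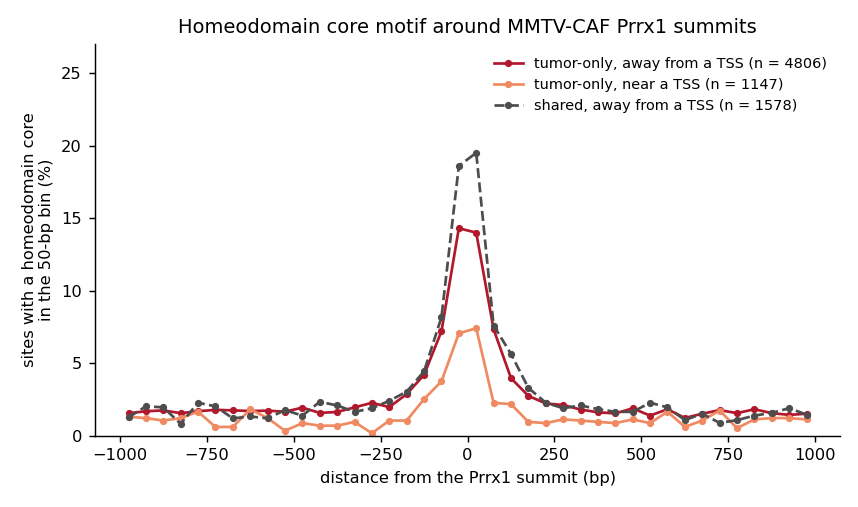
Share of MMTV-CAF Prrx1 sites (y axis, %) with a copy of the homeodomain core starting in each 50-bp bin, against the distance from the summit (x axis, bp). Tumor-only sites away from a TSS peak at 14.3% in the bin just before the summit, those near a TSS at 7.41% just after it, and both lines lie at 1.13% to 1.56% in the outermost bins.

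Tumor-only sites carried the core less often than the shared sites, by -6.80 percentage points (-9.29 to -4.34), and this difference depended on the Prrx1 score. The score is the −log10 p-value that the authors' peak caller gave each summit. Among sites with a score of 7 to 10, the core was present at 38.6% of tumor-only and 48.6% of shared sites. At 10 to 15 the shares were 43.2% and 45.5%, and at 15 and over 36.2% (28.7 to 44.4%) and 30.1%, so that the intervals overlapped among the strong sites. Among all MMTV-CAF sites scoring at least 10, the core was present at 304 of 726 tumor-only and 345 of 921 shared sites, a difference of 4.41 points (-0.337 to 9.16). When every list was cut to such summits, the classes were redrawn, and the difference was 6.16 points (0.954 to 11.2), of the opposite sign to that over all sites. For comparison, 70.7% of the 1473 sites found only in MEFs and 35.2% of the 3318 sites found only in wound-healing fibroblasts held the core. Tumor-only sites thus had nearly the share of wound-only sites and less than that of MEF-only sites.

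The core was most frequent where no active mark lay. Of the tumor-only sites with neither H3K27ac nor H3K4me3 in MMTV-CAF WT, 49.6% (47.6 to 51.7%) held it, against 31.4% with H3K27ac alone, 28.6% with H3K4me3 alone and 19.0% (17.3 to 20.8%) with both. Shared sites likewise held it most often with neither mark (61.4%) and least often with both (29.0%). These groups were not split by location, and the core was present at 19.1% of tumor-only sites near a TSS and 37.4% away from it. The AP-1 motif TGANTCA, bound by Fos and Jun dimers, had another order. It was found at 31.0% (27.6 to 34.5%) of tumor-only sites with H3K27ac alone, 19.8% with both marks, 14.3% (12.3 to 16.5%) with H3K4me3 alone and 14% (12.7 to 15.5%) with neither. The shared sites gave 31.9%, 20.3%, 14.9% and 14.9% in this order. Over all tumor-only sites AP-1 motifs were present at 17.9%, at 19.1% of the shared sites and at 5.94% of flanking windows. Away from a TSS, the Tead motif GGAATG (16.1% against 10.9% in flanks) and the E-box CAGCTG (13.9% against 8.81%) exceeded their flanks, whereas the TALE motif TGACAG (13.6% against 13.1%) did not by more than its interval. Near a TSS the promoter motifs CCAAT of NF-Y (41.3% against 23.9%), CCGGAAG of ETS factors (8.46% against 0.959%) and GGGGCGGGG of SP and KLF factors (4.97% against 0.523%) exceeded flanks that lie farther from the TSS. A motif match describes the letters in these windows and is not a measured binding site.

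The Prrx1 scores describe what chose the sites. The median score was 6.45 for tumor-only sites (quartiles 5.18 and 8.06, lowest 3.01, highest 52.7), 8.53 for sites shared with wound-healing fibroblasts, 8.46 for those shared with MEFs and 13.6 for those in all 3 lists. Scores below 5 belonged to 20.9% of tumor-only and 7.03% of shared sites, and 12.2% and 46.6% reached 10. The stated peak-calling limit corresponds to a score of 5, so 1247 tumor-only sites lay below it although they were listed, and with summits of at least 5 alone in every list 4893 sites were tumor-only. Tumor-only sites were 3 of the 100 highest-scoring MMTV-CAF sites, 96 of the top 500 and 327 of the top 1000. The MMTV-CAF list is also the longest, with 8000 summits against 5698 in wound-healing fibroblasts and 3048 in MEFs. Cutting all 3 lists redraws the classes, since a shared site becomes tumor-only when its counterpart falls out. With the lists cut to the same size 1969 sites were tumor-only, and with scores of at least 10 in every list 1177, although 726 of the tumor-only sites described here reached 10. Few sites depended on the merging distance. Just outside the limit, 157 tumor-only sites lay within 1 kb of a summit of another list (median score 6.45), and just inside it 32 shared sites met another list's summit only near the end of the merging distance (median score 6.01). The median distance to a summit of another list was 62.1 kb.

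**Figure D2:**
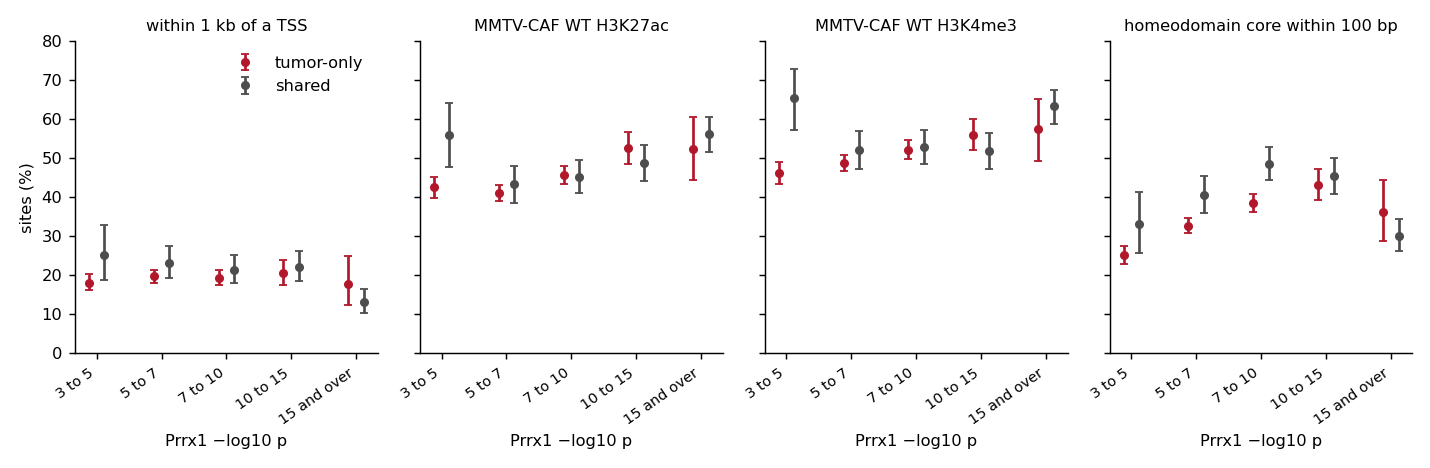
Share of tumor-only (red) and shared (gray) MMTV-CAF Prrx1 sites (y axis, %) that lie near a TSS, carry MMTV-CAF WT H3K27ac or H3K4me3, or hold the homeodomain core, in 5 classes of the Prrx1 −log10 p (x axis). Bars are 95% Wilson intervals, and the 2 kinds of sites overlap in every panel at scores of 10 and over.

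Marker genes were checked against the fibroblast label. In MMTV-CAF WT, H3K4me3 lay over a TSS of 9 of 12 fibroblast marker genes, missing at Fap, Lum and Thy1, and of 0 of 12 mammary epithelial, 0 of 8 leukocyte and 0 of 6 endothelial markers. These last 3 lists had 0 or 1 marked gene in each of the other 6 H3K4me3 libraries. The sequencing depth behind the lists is unknown.

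Most tumor-only sites lay away from genes' starts. Within 1 kb of a TSS of a protein-coding gene (GENCODE vM1) were 1147 sites, or 19.3% (18.3 to 20.3%), beside 20.2% (18.5 to 22.0%) of shared sites, a difference of -0.914 points (-2.99 to 1.08). Introns held a further 38.8%, coding exons 0.521%, untranslated exons 0.958% and intergenic sequence 40.5%. The 4806 sites away from a TSS had a median distance of 28.9 kb, and 899 of them (18.7%) lay more than 100 kb away. The shared sites were a mixture. Near a TSS were 29.7% of those shared with wound-healing fibroblasts, so that the tumor-only sites differed from these by -10.4 points (-13.3 to -7.58), but 5.97% of those shared with MEFs and 10.1% of those in all 3 lists. The sites found only in wound-healing fibroblasts were near a TSS in 25.6% of cases and those found only in MEFs in 1.49%. Tumor-only sites therefore lay between the other classes. With classes redrawn from summits scoring at least 10 in every Prrx1 list, the difference from shared sites was 7.89 points (3.89 to 11.5), and with classes redrawn from lists of equal size 5.42 points (2.51 to 8.20), both of the opposite sign. Among the sites that score at least 10, with the classes left as they were, the shares near a TSS were 145 of 726 and 161 of 921, a difference of 2.49 points (-1.28 to 6.33). The promoter share of tumor-only sites differed little between score classes, from 17.7% at scores of 15 and over to 20.5% at 10 to 15.

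Tumor-only Prrx1 sites were often marked in cells in which no Prrx1 summit was listed. H3K27ac, taken as a summit within 500 bp, was present at 44.1% (42.8 to 45.3%) of tumor-only sites in MMTV-CAF WT, 40.5% in MMTV-CAF SG, 35.9% in MEF WT, 27% in MEF KI, 33.2% in MEF SG, 29.3% in wound-healing WT and 33.6% in wound-healing SG. H3K4me3, taken as a region overlapping the 500-bp window, was present at 50.1% (48.9 to 51.4%), 46.8%, 27.3%, 21.7%, 25.7%, 26.5% and 30.7% of them in the same order. The MMTV-CAF lists were the highest for both marks, and they are also the longest (53873 and 61603 H3K27ac summits, 27339 and 29166 H3K4me3 regions). Their H3K4me3 regions included weaker ones, with a median −log10 p of 7.51 in MMTV-CAF WT, 28.6 in MEF WT and 16.6 in wound-healing WT. With MMTV-CAF WT regions of at least 10 alone, the H3K4me3 share was 30.3%.

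The high shares in MMTV-CAFs came from sites away from a TSS. Near a TSS, H3K27ac was present at 65.9% in MMTV-CAF WT, 69.0% in MEF WT and 68.4% in wound-healing WT, and H3K4me3 at 96.6%, 91.5% and 91.2%. Away from a TSS, H3K27ac was present at 38.8% (37.5 to 40.2%), 27.9% (26.7 to 29.2%) and 961 of 4806 sites (18.9 to 21.2%), and H3K4me3 at 39.1%, 12% and 11.1%. The shared sites away from a TSS were marked more often in each of the 14 lists. The gap was widest for H3K27ac in MEF WT, at -14.6 points (-17.3 to -11.8), and in MMTV-CAF WT it was -5.64 points (-8.46 to -2.84). Over all sites, the gap in MMTV-CAF WT H3K27ac was widest at Prrx1 scores of 3 to 5, with 42.5% of tumor-only and 56.1% of shared sites marked. At scores of 7 to 10 the shares were 45.7% and 45.3%, at 10 to 15 52.6% and 48.9%, and at 15 and over 52.5% and 56.2%, the intervals overlapping in each. Among all sites scoring at least 10 the marked shares were 52.6% of 726 tumor-only and 52.7% of 921 shared sites, a difference of -0.0431 points (-4.89 to 4.80). When every Prrx1 list was cut to such summits and the classes were redrawn, the difference was 8.23 points (2.90 to 13.5), of the opposite sign to that over all sites. With H3K27ac taken within 250 bp the difference was 0.208 points (-1.90 to 2.24). In their marks, too, the shared sites were a mixture. MMTV-CAF WT H3K27ac lay within 500 bp of 58.2% of sites shared with wound-healing fibroblasts. It did at 31.0% of those shared with MEFs and 42.2% of those in all 3 lists. For H3K4me3 these shares were 71.4%, 28.7% and 42.0%. The tumor-only shares, 44.1% and 50.1%, lay between these classes.

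**Figure D3:**
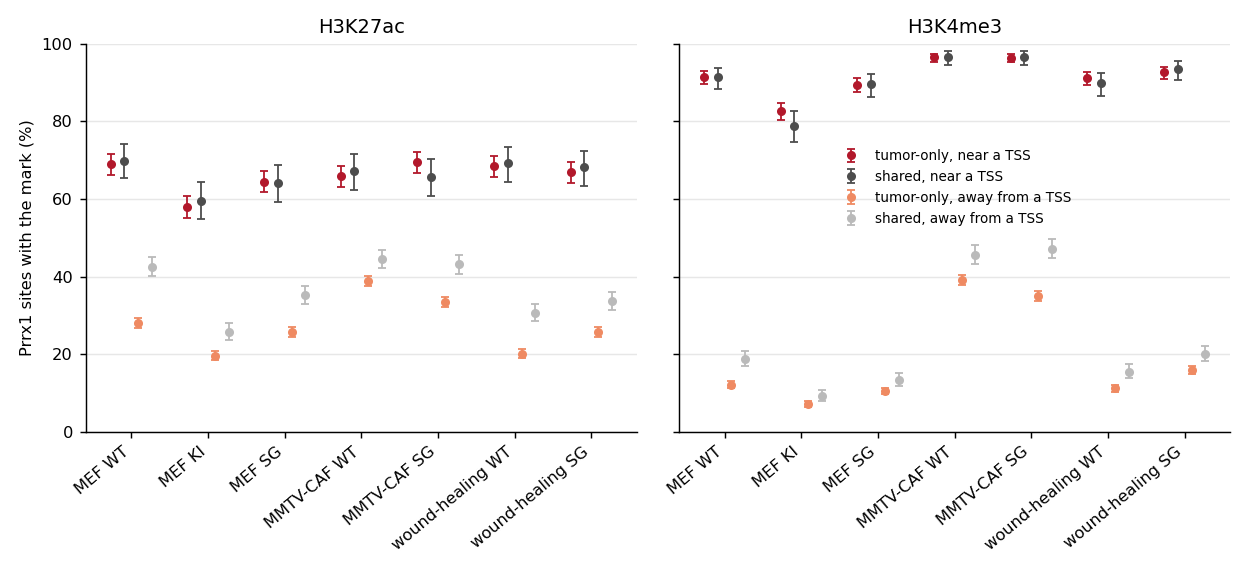
Share of tumor-only (red, orange) and shared (dark and light gray) MMTV-CAF Prrx1 sites with H3K27ac (left) or H3K4me3 (right) in each of the 7 lists per mark (x axis), near or away from a TSS. Bars are 95% Wilson intervals; near a TSS the 2 kinds of sites overlap in all 14 lists, and away from a TSS the tumor-only sites lie lower.

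Taken by both marks in MMTV-CAF WT, 1935 tumor-only sites (32.5%) had H3K27ac and H3K4me3, 688 (11.6%) H3K27ac alone, 1050 (17.6%) H3K4me3 alone and 2280 (38.3%) neither. Neither mark was found at 31.0% of shared sites. In all 14 histone lists together, 1880 tumor-only sites (31.6%) had no mark in any, beside 21.0% of shared sites, and 458 (7.69%) were marked in every list.

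Of the 2623 tumor-only sites with H3K27ac in MMTV-CAF WT, 774 (29.5%, 27.8 to 31.3%) had it in neither MEF WT nor wound-healing WT, beside 18.5% of the marked shared sites, a difference of 11.1 points (7.97 to 14). In both other WT lists it was present at 1169 sites (44.6%). Their nearby MMTV-CAF summits recurred in MEF WT in 64.5% (62.7 to 66.4%) and in wound-healing WT in 53.3% (51.4 to 55.2%). All MMTV-CAF WT summits recurred there in 52.1% and 41.3%, and summits of the same decile of −log10 p in 66.8% and 59.5%. For H3K4me3 regions the shares were 61.8% in MEF WT and 60.4% in wound-healing WT, where regions of the same width decile gave 70.0% and 69.4%. The marks over tumor-only sites were thus shared with the other WT fibroblasts more often than marks in general, and less often than marks of the same strength or width.

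A small share of the tumor-only sites was densely packed. In fixed bins of 1 Mb, 1568 bins held at least 1 tumor-only site with a median of 3, and 5 bins held at least 30, a limit chosen after seeing the data. These 5 held 267 tumor-only sites (4.49%) and 11 shared sites (0.556%), and the next fullest bin held 26. The 3 bins from 6 to 9 Mb of chromosome 9 form 1 stretch that carries Pdgfd, a platelet-derived growth factor gene, a row of matrix metalloproteinase genes, Birc2 and Birc3, which encode inhibitors of apoptosis, and Yap1, the transcriptional coactivator of the Hippo pathway. Their tumor-only sites numbered 48, 95 and 39. The others lay on chromosome 6, with 48 sites from 37 to 38 Mb around Creb3l2 and 37 sites from 17 to 18 Mb around Met, the receptor of hepatocyte growth factor.

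All 3 kinds of library from MMTV-CAF WT were dense in these bins. They held 424 H3K27ac summits in MMTV-CAF WT (0.787% of the list) and 173 in MMTV-CAF SG (0.281%), and 80 to 155 in the other 5 lists. H3K4me3 regions numbered 151 in MMTV-CAF WT, 62 in MMTV-CAF SG and 23 to 43 elsewhere. In the bin from 6 to 7 Mb of chromosome 9 there were 75 H3K27ac summits in MMTV-CAF WT and 2 in MMTV-CAF SG, 21 and 0 H3K4me3 regions, and 48 Prrx1 summits where MEFs and wound-healing fibroblasts had 0. The bin around Met differed, with 115 H3K27ac summits in MMTV-CAF SG and 0.232% of the WT list against 0.187% of the SG list. The part of DNA copy number in these counts was not tested, since no input track was used here, and the main results after deletion are given with and without these bins.

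**Figure D4:**
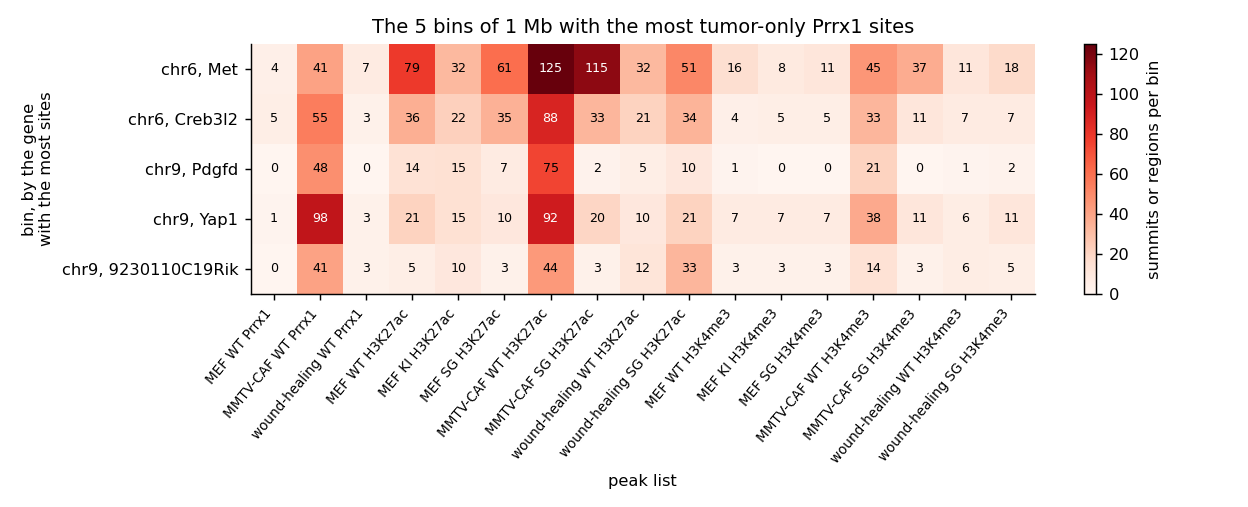
Number of Prrx1 and H3K27ac summits and H3K4me3 regions (color and digits) in the 5 bins of 1 Mb with the most tumor-only sites (rows, by chromosome and the gene with the most sites) in each of the 17 peak lists (columns). The MMTV-CAF WT columns are darkest, and in 4 of the 5 rows the MMTV-CAF SG columns are far lower.

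Chromosomes were also unequal beyond these bins. Chromosome 15 held 621 tumor-only sites (10.4%, 9.68 to 11.2%), or 6.00 per Mb, beside 7.64% of the shared sites, 5.90% of the MMTV-CAF WT H3K27ac summits and 5.29% of those in MMTV-CAF SG. Relative to its share of MMTV-CAF WT H3K27ac summits, chromosome 15 was 1.77-fold over, chromosome 17 next at 1.52-fold (7.39% of tumor-only sites and 4.87% of summits) and chromosome 14 lowest at 0.536. Without the 5 bins these ratios were 1.85, 1.59 and 0.561. Chromosome 8 held 3.38% of tumor-only but 8.80% of shared sites.

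The lists from deleted cells address how enhancer marks differ when Prrx1 is gone. Of the 2623 tumor-only sites with H3K27ac in MMTV-CAF WT, 706 (26.9%, 25.3 to 28.6%) lay at a summit with no counterpart within 500 bp in MMTV-CAF SG. Over all WT summits the share was 36.1%. The lists give summits and not whole regions, so a mark whose SG summit lies more than 500 bp away counts as absent. For tumor-only sites the absent share was 36.5% with a limit of 250 bp (-8.13 points from all WT summits). With a limit of 1 kb it was 18.5% (-6.31 points). Tumor-only sites lay at strong summits (median at percentile 73.0 of the list), and WT summits of the same decile of −log10 p were absent in 25.5%. Within each quartile of WT strength the values were close, from 61.6% of members and 60.5% of all summits in the lowest to 12.6% and 12.2% in the highest. The shared sites gave 23.3% (20.7 to 26.1%), where 24.2% was expected.

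Near and away from a TSS the sites differed. The expected share is matched for strength and not for location, so it pools summits near and away from a TSS. Near a TSS 64 of 756 marked sites (8.47%, 6.69 to 10.7%) had no SG counterpart, below the 14.6% expected at their strength. Away from a TSS 642 of 1867 had none (34.4%, 32.3 to 36.6%), 4.4 points above the expected share. The 5 dense bins held 66 such sites among 95 marked sites (69.5%), and outside them the values were 25.3% (23.7 to 27%) of all marked tumor-only sites with 25.2% expected, 8.19% near a TSS with 14.3% expected, and 32.5% (30.3 to 34.7%) away from a TSS with 29.8% expected. The excess away from a TSS was therefore 2.69 points without the bins. Away from a TSS and outside the bins, sites with the homeodomain core had no SG counterpart in 37.3% (33.0 to 41.8%, 34.3% expected) and sites without it in 30.8% (28.4 to 33.4%, 28.7% expected), and both intervals hold the expected share. With the bins the shares were 39.4% (35.1 to 43.8%, 34.1% expected) and 32.7% (30.3 to 35.2%, 28.6% expected), both intervals lying above it. By Prrx1 score, the share away from a TSS and outside the bins was 27.1% (22.8 to 31.9%) at scores of 3 to 5 with 30.7% expected, 35.1% (31.5 to 38.8%) at 5 to 7 with 31.1% expected, 33.1% at 7 to 10 with 29.7% expected and 30.7% at 10 to 15 with 27.3% expected. At scores of 15 and over it was 19 of 48 (39.6%) with 28.7% expected, and with the bins 26 of 57 (45.6%, 33.4 to 58.4%) with 26.7% expected. Outside the bins the interval lay above the expected share at scores of 5 to 7 only, and with the bins at 5 to 7 (36.3%), 7 to 10 (194 of 554 sites), 10 to 15 (34.4%) and 15 and over, where the expected shares were 31.1%, 29.6%, 27.2% and 26.7%.

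The same WT sites can be followed in cells that had no listed Prrx1 summit there. Of tumor-only sites with H3K27ac in MEF WT, 20.4% (18.8 to 22.2%) lay at a summit with no counterpart in MEF SG. The background over all WT summits was 31.8% and the expected share 24.2%. In MEF KI the share was 39.9% (37.8 to 42.0%, background 55.7%, expected 44.2%), and in wound-healing SG 21.5% (19.6 to 23.5%, background 32.3%, expected 27.7%). In these 3 contrasts the tumor-only sites lay below the share expected at their strength, by -3.79, -4.32 and -6.17 points, and in MMTV-CAF they lay at it, with 1.38 points over all sites and 0.0954 points without the dense bins. The MEF SG and KI values share their WT list. Near a TSS the differences were -6.54 points in MEF SG, -4.31 in MEF KI and -8.73 in wound-healing SG. Away from a TSS they were -2.17, -4.32 and -4.08 points.

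Some H3K27ac summits were listed in deleted cells alone. Of 3330 tumor-only sites without a summit within 500 bp in MMTV-CAF WT, 387 (11.6%, 10.6 to 12.8%) had an SG summit with no WT counterpart. Read from the SG list, 498 of the 2408 marked tumor-only sites (20.7%, 19.1 to 22.3%) lay at such a summit, beside 43.6% of all SG summits. These backgrounds for marks found only in SG were not matched for strength or width, and the tumor-only sites lay at strong SG summits (median at percentile 73.9). Shared sites gave 17.4% (15.2 to 19.8%) for the first measure, more than the tumor-only sites.

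For H3K4me3, 363 of 2985 marked tumor-only sites (12.2%, 11.0 to 13.4%) lay in a MMTV-CAF WT region that overlapped none in SG, beside 24.0% of all WT regions and 13.0% expected from regions of the same width decile. Outside the dense bins the share was 10.9% (9.78 to 12.1%) with 12.8% expected, and inside them 50 of 104 (48.1%). With marks of −log10 p of at least 10 alone in both lists, the share was 3.83%, and its difference from all WT regions was -0.404 points (-1.28 to 0.642), where it had been -11.8 points. Nearly all absent regions lay away from a TSS, with 356 sites, and 7 of 1108 lay near a TSS. Of the sites without H3K4me3 in WT, 5.80% (5.01 to 6.69%) had a new region in SG, and 6.32% of the sites marked in SG lay in such a region, beside 29.1% of all SG regions, not matched for width. In MEF SG, MEF KI and wound-healing SG, 4.12%, 11.6% and 1.71% of marked tumor-only sites lay in absent regions, below the backgrounds of 12.5%, 26.3% and 7.54%, with 5.33%, 13.0% and 2.80% expected.

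Regions present in both MMTV-CAF lists were compared by width. The 2622 paired tumor-only sites lay in regions with a median log2 width ratio of -0.07 (SG over WT), beside 0.03 for all 20776 paired regions. At least 1.5-fold narrower in SG were 14% (12.7 to 15.3%) of them, beside 9.84% of all, and at least 1.5-fold wider 11.1% (9.99 to 12.4%), beside 20.3%. The regions at tumor-only sites were wide to begin with, with a median of 2399 bp in WT where all regions had 1176 bp, and 26.9% exceeded 4 kb where 11.0% of all did. The shared Prrx1 sites gave 27.9% (25.3 to 30.6%), with overlapping intervals.

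**Figure D5:**
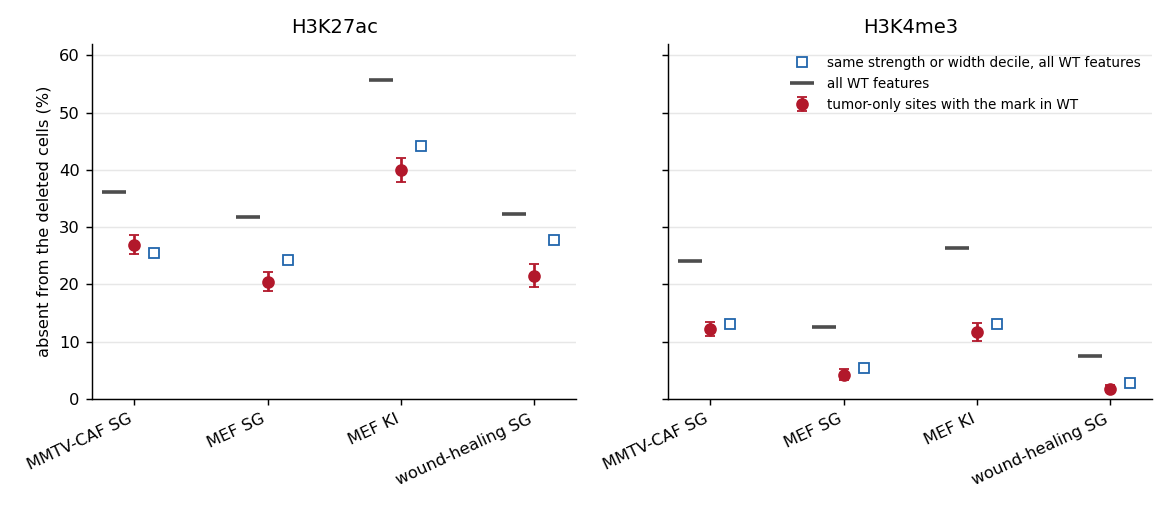
Share of WT-marked tumor-only sites (red, 95% Wilson intervals) whose H3K27ac summit or H3K4me3 region was absent from the deleted cells (y axis, %), for each deleted list (x axis). Blue squares show the share expected from WT features of the same decile of strength or width and gray bars the share of all WT features; red lies on the blue square for H3K27ac in MMTV-CAF SG (26.9% and 25.5%) and below it in the other 3 contrasts.

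The strongest tumor-only sites were examined by name. Of the 8 highest-scoring near a TSS and the 8 highest-scoring away from it, 7 lay in the dense bins. Near a TSS the scores were 48.5 at AK129341, 33.5 at Yap1, 28.6 at Tmem167b, 28.5 at Mmp27, 24.9 at Dnm2, 23.8 at C330006D17Rik, 23.2 at Nckap5 and 23.0 at Sharpin. Outside the dense bins, Tmem167b, Dnm2 (dynamin 2, which pinches off endocytic vesicles) and Sharpin (a subunit of the linear ubiquitin ligase complex) had both marks in MMTV-CAF WT, and H3K27ac in all 7 lists. At Tmem167b the H3K27ac −log10 p was 51.5 in MMTV-CAF WT and 46.4 in SG, and at Dnm2 74.3 and 76.5. At Sharpin it was 77.8 and 115. These 3 starts thus had a summit in every list, from WT and deleted cells alike. Nckap5, also outside the bins and with both marks, had 12.3 in MMTV-CAF WT and 29.3 in SG, and no summit in MEF KI or wound-healing WT. At Mmp27, H3K4me3 spanned 2255 bp in MMTV-CAF WT and 620 bp in SG, and no region was listed in MEFs or wound-healing fibroblasts.

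The Yap1 upstream site, 216 bp from a TSS, had the strongest H3K27ac summit among tumor-only sites without an SG counterpart, with a −log10 p of 274 in MMTV-CAF WT and no summit within 500 bp in SG. H3K4me3 remained over it, at 5062 bp in WT and 4484 bp in SG, and at 3272 to 4604 bp in the wound-healing lists and 2864 to 3795 bp in the MEF lists. Yap1 with 10 kb around it held 26 tumor-only sites, the most of any gene, and 4 of them lay within 1 kb of its TSSs. An intronic Yap1 site with a score of 33.3 had H3K27ac at 135 in WT and 7 in SG, and a WT H3K4me3 region of 4457 bp that overlapped none in SG. The 5 sites with the widest WT H3K4me3 region and none in SG all lay in or beside Yap1, in 3 regions of 7112, 4783 and 4457 bp, so each of these results belongs to the dense bins.

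Away from a TSS the highest scores included 52.7 near Akr1d1 (92.1 kb from its start), 40.1 in an intergenic site on chromosome 17, 33.4 near Cops7b, 33.3 in Yap1, 32.5 near Snx19, 32.1 near Sp7 and 31.8 near Trpc6. None of the 8 held the homeodomain core within 100 bp, while 3 of the 8 near a TSS did. The site on chromosome 17, at 39982670 to 39983658, lies 363 kb from the nearest protein-coding start in GC-rich sequence (68.2%), in an interval of mm9 known to hold a copy of the ribosomal RNA gene, whose reads come from many copies. The Cops7b site had H3K27ac at 8.39 in MMTV-CAF WT and 12.7 in SG.

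Outside the dense bins, the strongest WT summits without an SG counterpart lay near Lgals1, which encodes the lectin galectin-1 (442 bp from its start, 137 in WT), and 88.4 kb from Cebpb (137 in WT). Both had H3K27ac in other lists. The Lgals1 site had it at 69.1 in MEF WT, 22.8 in MEF KI, 45.3 in wound-healing WT and 71.8 in wound-healing SG, and had neither H3K27ac nor H3K4me3 in MEF SG, while the Cebpb site had it at 86.8 in MEF WT, 120 in MEF SG, 84.7 in wound-healing SG and 12.1 in MEF KI. The strongest summits found in SG and not in WT lay near Tnrc18 (162), Cdk6 (156), which encodes a cyclin-dependent kinase of the G1 phase, Slc4a2 (149), Ggnbp1 (115) and Rasa3. At all 5 an H3K4me3 region of MMTV-CAF WT covered the site. The widest H3K4me3 regions found in SG and not in WT, 2342 bp near Eea1, 2279 bp in Mid1, 2178 bp near Trim2 (at 2 sites) and 2150 bp near Brip1, were narrower than the WT regions at Yap1.

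Tumor-only sites lay in or within 10 kb of 5 of the 8 regulators in the study's list, where 18.2% of all genes and 28.7% of those with H3K4me3 in MMTV-CAF WT had one. The paper picked these regulators partly by super-enhancers mapped in the same 3 fibroblast types, and it reported Prrx1 bound there. The count is therefore not independent of these data. Prrx1 itself held 3 in its introns, with scores of 8.57, 5.11 and 5.80 and H3K27ac of 12.5 and 17 at the first 2 in MMTV-CAF WT and none there in SG. The third, 5.04 kb from a TSS, held a core and lay in the H3K4me3 domain of the promoter (13259 bp in MMTV-CAF WT, 15484 bp in SG). Tead1, a DNA-binding partner of Yap1, and Nfix held 4 each, Fosl2, an AP-1 subunit, 2 and Junb 1. The Tead1 site with the highest score, 15.5, had no mark in any list, and the site at 11.6 had H3K27ac in 6 lists, at 17.6 in MMTV-CAF WT and 27.9 in SG. Klf4, Cebpb and Klf13 held none within 10 kb. No tumor-only site lay within 1 kb of a TSS of these 8 genes, all of which had H3K4me3 in MMTV-CAF WT, where 5.53% of all genes and 10.4% of those with H3K4me3 had one. Shared sites did at 3 of the 8, at 1.91% of all genes and at 416 of the 11556 genes with H3K4me3. Col1a1, a chain of type I collagen, held 2, at scores of 6.93 and 6.28, under an H3K4me3 domain of 14732 bp in WT and 9921 bp in SG.

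Gene by gene, 1230 of 22225 protein-coding genes (5.53%) had a tumor-only site within 1 kb of a TSS, and 4042 (18.2%) had it in the gene or 10 kb around. Among the 11556 genes with H3K4me3 over a TSS in MMTV-CAF WT the shares were 10.4% and 28.7%. The lists of fibroblast and pathway genes, made largely of such genes, are read against these, and the mammary epithelial, leukocyte and endothelial markers, of which none had H3K4me3, against the shares of all genes. Shared sites lay within 1 kb of a TSS of 425 genes (1.91%). Counts in or around a gene, also those for the regulators above, were not matched for gene length. Longer genes offer more room for sites, and Tgfbr3, for example, spans 183 kb. The matrix list, with collagens and lysyl oxidases, had 0 of 29 genes with a tumor-only site near a TSS and 14 of 29 in or around the gene, where Fbn1, which encodes fibrillin-1, had 7 sites and Col1a2 4. The TGF-β list had 1 of 27 near a TSS and 14 of 27 around, where Tgfbr3, the betaglycan coreceptor, had 11 sites and Pmepa1 and Ltbp1 had 5 each. Contractile genes had 2 of 22 near a TSS and 7 of 22 (31.8%) around. Near a TSS these were Acta2, the smooth muscle actin of myofibroblasts (score 6.64), and Zyx (7.32), and Myh9 had 6 sites around it. Fbn1, Col1a2, Pmepa1, Ltbp1 and Myh9 were picked after their values were seen. At Acta2, no H3K27ac summit lay within 500 bp of the site in MMTV-CAF WT, and in SG the summit was at 35.4.

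Mesenchymal factors had 3 of 32 near a TSS (Runx1, Shox2 and Zeb2) and 12 around, inflammatory genes 3 of 22 (Has2, Pdpn and Stat3) and 8, proteases 3 of 18 (Mmp3, Mmp10 and Mmp14) and 9, or 1 and 6 without the dense bins, and angiogenesis genes 2 of 17 (Angptl4 and Nrp2) and 10. Integrin genes had 2 of 18 (Itgav and Sdc1) and 7, Hippo and Tead genes 2 of 14 (Cyr61 and Yap1) and 6, or 1 and 5 without the dense bins, and Wnt and BMP genes 0 of 26 and 7. AP-1 genes had 0 of 13 near a TSS and 3 around. Fibroblast markers had 1 of 12 near a TSS (Pdgfrb) and 9 around, and the mammary epithelial, leukocyte and endothelial markers 0 near a TSS and 1 of 12, 1 of 8 and 2 of 6 around. The highest shares near a TSS among the lists were those of cell cycle and ribosomal protein genes. Cell cycle genes had 5 of 22 (22.7%), namely Ccna2, Ccnb1, Cdkn2c, Myc and Rbl1, and 11 of 22 around. Cytosolic ribosomal protein genes had 21 of 82 (25.6%) near a TSS and 32 of 82 (39.0%) around. Shared sites, fewer in all, were found near a TSS of 1 of the 22 and 2 of the 82 (2.44%), beside 4 of 22 contractile, 2 of 29 matrix, 3 of 27 TGF-β and 2 of 12 fibroblast marker genes. They were also near 2 of 32 mesenchymal factors, 2 of 18 integrin, 1 of 22 inflammatory and 1 of 17 angiogenesis genes. Hippo and Tead genes had 1 of 14, AP-1 genes 1 of 13, proteases 0 of 18 and Wnt and BMP genes 0 of 26. The scores at the ribosomal protein starts were, for example, 9.52 at Rpl10a, 6.17 at Rplp0 and 5.80 at Rpl26. Their H3K4me3 was present in MMTV-CAF WT at 79 of the 82 genes.

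The genes with the most tumor-only sites after Yap1 were Gm20388, a long model on chromosome 8 that spans other genes (17 sites over 4435 kb), Creb3l2 (16), Met (15), Dync2h1 (12), and Tgfbr3 and Tmem123 (11 each), and 9230110C19Rik, first by name of several genes that tied at 8 sites. Of these 8 leading genes, Gm20388 and Tgfbr3 lay outside the dense bins.

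Enhancer clusters were formed from H3K27ac summits within 12.5 kb of each other and ranked by summed −log10 p. The 1168 highest of 18506 MMTV-CAF WT clusters, above the bend of the rank curve, were called super-enhancers. They held 1122 tumor-only sites (18.8%) and 20.8% of the shared sites, a difference of -1.94 points (-4.03 to 0.0647). Of the 3048 tumor-only sites within any cluster 36.8% lay in a super-enhancer, and super-enhancers made up 35.2% of the bases in clusters. At least 1 tumor-only site lay in 627 of them (53.7%), and 435 of these had no shared site. Of the 627, 183 (29.2%, 25.8 to 32.9%) overlapped no super-enhancer in MMTV-CAF SG, beside 33.4% of all 1168 and 29.3% expected from super-enhancers of the same rank decile.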

How the data were processed

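ChIP-seq for H3K27ac, H3K4me3 and Prrx1 was performed on cultured mouse fibroblasts. Upstream, the authors used Trimmomatic for trimming, Bowtie for alignment (mm9) and MACS2 for peak calling against input, after duplicate removal. The deposited Prrx1 and H3K27ac lists give 1-bp summits with the −log10 p-value, and the deposited H3K4me3 lists give broad regions with fold enrichment over input, −log10 p-value and −log10 q-value. Whether the Prrx1 lists pool duplicate ChIPs is not given in the sources used here. Of the 24 samples, 7 are inputs, for which no signal was used.

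Sites were merged as described above. H3K27ac was counted within 500 bp, H3K4me3 by overlap with the 500-bp site window, and motifs within 100 bp of the strongest summit, with flanks 2 kb away. A mark without a counterpart in the deleted cells was called absent. The expected share weights the 10 strength or width deciles of all WT features by the members' own. It was not matched for distance to a TSS. TSSs are those of protein-coding genes of GENCODE vM1, and sequence is that of NCBIM37. Python 3.11.15, pandas 2.3.3, numpy 2.4.6 and pysam 0.24.0 were used, and scripts were tested on simulated data. The members, gene lists and motifs were chosen with earlier results of these data known. Named were the 8 strongest sites near and the 8 away from a TSS, the 8 genes with most sites, list genes with a site near a TSS, the study's regulators and Col1a1, and the 5 strongest marks absent from either MMTV-CAF list; some of these are not reported here. With 1 library per group no test was run, and depth is unknown. The alternatives varied the score limit, list size, merging distance, distance to a TSS, mark or motif, and the dense bins.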

Additional observations from a re-analysis of the deposited data

Results flagged for a closer look

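The share of H3K27ac-marked tumor-only sites whose summit was absent from the deleted cells lay 1.38 points above the share expected at the same WT strength in MMTV-CAF SG, and below it in the other 3 contrasts, by -3.79 points in MEF SG, -4.32 points in MEF KI and -6.17 points in wound-healing SG. These values stood out because the tumor fibroblasts and the other fibroblasts lay on opposite sides of 0. With 1 library per group the difference was not tested. Without the 5 dense bins the MMTV-CAF value was 0.0954 points, and the others were -3.92, -4.38 and -6.02 points.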

How the results depend on the processing

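Each group has 1 library per mark. Both histone marks were mapped in WT and SG cells of every fibroblast type, but a comparison paired by type was not run. Of the recomputed values, 71 stayed within their interval or count limit, 48 moved and 6 turned direction. The promoter difference, whose interval holds 0, is not among the 6 but changed sign as well, to 0.200 points with narrower windows and as given below for scores and equal lists. The cause was not tested for any turn. Limits come from the lack of replicates and the unknown depth.

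With Prrx1 scores of at least 5, the promoter difference from shared sites was 1.17 points, the H3K27ac difference -1.92, the H3K4me3 share 51.7% with a difference of -2.24, and the TAATTA share 36.3%. With scores of at least 10 the classes were redrawn and 1177 sites were tumor-only, with a promoter share of 20.8% (difference 7.89), H3K27ac 55.1% (8.23, turned), H3K4me3 58.2% (3.54, turned) and TAATTA 41.1% (6.16, turned). H3K27ac was then absent in SG at 29.3% (-6.76 from all features) and new at 16.6%, and H3K4me3 absent at 14.3% (-9.70) and new at 9.96%. With Prrx1 lists of equal size the classes were redrawn too and 1969 sites were tumor-only, with a promoter share of 21.4% (5.42), H3K27ac 50.6% (2.59, turned), H3K4me3 56% (1.68, turned) and TAATTA 40.3% (-0.478). With summits widened by 500 bp the H3K4me3 share was 48.6%, and the promoter difference was -2.71 points (-4.78 to -0.705). A TSS distance of 500 bp gave a promoter share of 14.4% and one of 2.5 kb 25.8%.

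With H3K27ac taken within 250 bp, the share was 21.1% (difference 0.208, turned), absent in SG 36.5% and new 8.41%. Within 1 kb it was 59.0% (-7.91), absent in SG 18.5% (-6.31 from all summits). With −log10 p of at least 10, H3K27ac was present at 40.5% and H3K4me3 at 30.3% (-2.42). With that limit in both mark lists the H3K27ac absence differed from all summits by -7.37 points and new summits were at 10.6%, whereas H3K4me3 was absent at 3.83% (-0.404) and new at 3.54%. With mark lists of equal size, H3K27ac was absent at 29.6% and new at 10.4%. TAATTA within 50 bp was present at 23.8% and within 250 bp at 43.7%. Leaving out the dense bins, an alternative chosen after seeing the data, gave H3K4me3 absent at 10.9% (-13.1).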
